A study of Caenorhabditis elegans with 2 samples.

Results

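The places described here are peaks of PHA-2 chromatin binding that lay inside introns and away from gene starts. PHA-2 is a homeobox factor of the Hex type, and without it the isthmus of the Caenorhabditis elegans pharynx, the feeding organ, does not form properly. Of the 30000 peaks that the authors' pooled, relaxed list gives on the ce11 assembly, 2902 were nuclear with a signal of 80 or more, and 397 of these met the rule. The rule kept a summit that lay inside a gene body, in no exon of any transcript, outside every promoter window (1000 bp upstream and 500 bp downstream of each annotated gene or transcript 5′ end), and not within 200 bp of a tRNA, snoRNA or snRNA gene (Ensembl release 115). The other nuclear peaks of that signal were 2028 in promoter windows, 360 between genes and 117 in exons. Signal is the authors' own peak value, whose scale is not given in the sources used here, so it was compared only within a list. The 397 peaks were selected on their pooled signal and position, so both are given as descriptions, with no test.

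The ChIP-seq material was late embryos of mixed sex from strain OP687, used whole 3 h after the eggs were bleached to synchronise them. The strain carries the allele unc-119(tm4063) on chromosome III and the transgene wgIs687, which encodes PHA-2 fused at its C-terminus to GFP-FLAG, and the sample descriptions give an anti-GFP antibody for the precipitation, while the antibody field of the labels reads pha-2. The single group had 2 biological replicates, both called against 1 shared control, which was not analysed here. The material was a mixture of all embryonic tissues, so a peak cannot be assigned to the pharynx or to any other tissue, and pha-2 was not itself among the host genes.

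Homeobox factors as a class bind short sequences around a TAAT core and often act from several elements per gene. In the compact genome of this nematode, most regulatory elements lie just upstream of genes, and introns, above all long first introns, hold many of the others. Repeat-derived sequence is common in introns too, so the repeat content of each window is given beside its sequence.

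The 5 sequences that follow are summit windows, reaching 75 bp to either side of the summit, of the strongest intronic peaks, read from the plus strand of WBcel235, the same assembly as ce11. They show how unlike one another the strongest windows are. Capitals mark TAAT or its reverse complement, except in the window in srt-52, where they mark a match to the box A core GGCNNAGTG.
usp-39, chrII:2570789-2570939: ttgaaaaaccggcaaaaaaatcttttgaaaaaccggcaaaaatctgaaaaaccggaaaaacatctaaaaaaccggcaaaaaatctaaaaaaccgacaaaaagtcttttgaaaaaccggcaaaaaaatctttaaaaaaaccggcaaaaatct
grdn-1, chrV:18596384-18596534: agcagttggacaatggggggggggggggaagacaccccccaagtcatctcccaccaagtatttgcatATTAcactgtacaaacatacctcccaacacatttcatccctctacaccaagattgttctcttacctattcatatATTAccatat
Y43F8B.2, chrV:19529339-19529489: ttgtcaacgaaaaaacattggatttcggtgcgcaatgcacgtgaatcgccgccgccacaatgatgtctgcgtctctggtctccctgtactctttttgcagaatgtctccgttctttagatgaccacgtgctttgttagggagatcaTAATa
hmt-1, chrIII:11091782-11091932: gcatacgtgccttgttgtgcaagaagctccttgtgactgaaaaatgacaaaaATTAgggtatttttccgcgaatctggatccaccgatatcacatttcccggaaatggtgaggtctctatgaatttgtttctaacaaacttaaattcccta
srt-52, chrV:53397-53547: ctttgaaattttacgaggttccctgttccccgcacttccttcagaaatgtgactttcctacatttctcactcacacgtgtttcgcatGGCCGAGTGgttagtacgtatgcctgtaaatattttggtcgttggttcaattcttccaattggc

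The strongest intronic peak lay in usp-39, which encodes a protein of the ubiquitin protease family associated with the spliceosome. It spanned 2570636 to 2571091 of chromosome II, in intron 8 of 11, and its pooled signal was 346 (replicates 150.7 and 189). Its window was an array of short A-rich repeat units, 100% soft-masked as repeat, with a GC content of 30.5% and no TAAT. The peak in intron 4 of grdn-1, the girdin gene, had a pooled signal of 249 (139 and 109 in the replicates). The next lay in Y43F8B.2 at 237 (114 and 126). A peak in the last intron of hmt-1, which encodes an ABC transporter for heavy metal tolerance, reached 219 (111 and 120). The next, in the chemoreceptor gene srt-52, reached 211 (93.8 and 115). These 5 windows had soft-masked shares from 12.6% to 100%, so heavy repeat masking was a property of the first one and not of the other 4.

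Peaks of the next signals lay in genes of varied roles. A peak in larp-1, which encodes a La-related RNA-binding protein, had a pooled signal of 206. The first intron of a pqn-41 transcript that starts inside the gene, 7776 bp long, held peaks of 192 and 160. These summits lay 17745 and 19390 bp from the start of the gene. The first intron of lsy-22, a gene for a Groucho-like corepressor, is 11392 bp long and held peaks of 186 and 156. The peak in let-526, which encodes an ARID subunit of the SWI/SNF chromatin remodeller, had a signal of 186. The nuclear hormone receptor genes nhr-3 and nhr-65 had peaks of 180 and 175, and spop-1, a gene for a BTB adaptor of cullin-3, had one of 173. The pseudogene WBGene00020829 also held a peak of 180.

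The 25 strongest peaks ran from 149 to 346 and lay in 22 host genes. All 25 were strong in both replicates, which here means that the pooled interval held the summit of a peak among the 2902 strongest nuclear peaks of that replicate. The pooled list comes from the same replicates, so this follows in part from the high pooled signals. Replicate 1 had the higher value in 18 of the 25, on a scale of its own. The replicates were far apart in some of them. In inso-1 the values were 107 in replicate 1 and 44.3 in replicate 2, in nhr-3 they were 117 and 57.4, and in F53H2.3 the order was the other way round, 52.2 and 106.

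**Figure D1:**
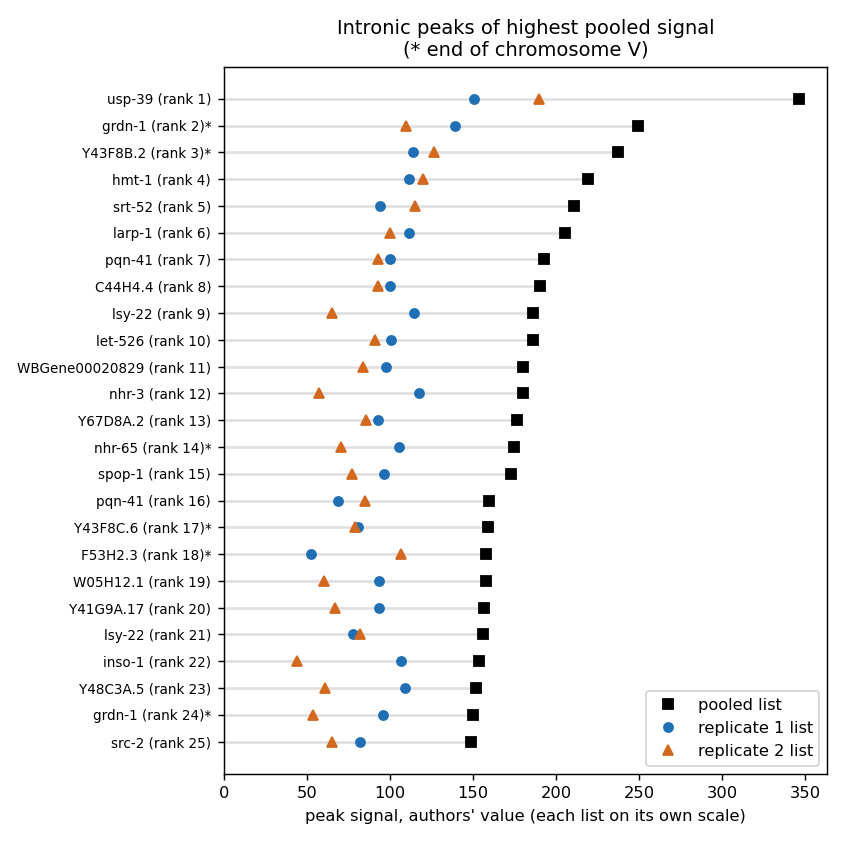
Signal of the 25 intronic peaks of highest pooled signal, by host gene and rank, in the pooled list (squares), replicate 1 (circles) and replicate 2 (triangles). The horizontal axis is the authors' peak value, each list on its own scale, and the horizontal lines only guide the eye. Replicate values lie between 44.3 and 189, and the gap between the replicates is wide for nhr-3, inso-1 and F53H2.3.

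Most intronic peaks were close to the lower limit of the rule. Pooled signals ran from 80.02 to 346 with a median of 93.5 and a middle range of 85.4 to 107, against a median of 105 for peaks in promoter windows, 95.2 between genes and 90.3 in exons. The strongest nuclear peak in a promoter window reached 1237. Of the 397, 53 (13.4%, 95% exact binomial interval 10.2 to 17.1) were in the authors' optimal list, against 29.5% of all 2902 nuclear peaks. That list starts at a pooled signal of 120, so membership restates the signal that the rule used. The deposited q-value was 0.05 or less for 95 of the 397 (23.9%), against 39.4% of all 2902. The median q-value of the intronic peaks was 0.113 and the largest 0.283, so that most of them are places listed at a relaxed cutoff. All 53 in the optimal list had a q-value of 0.02 or less.

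The peaks just inside the limit lay in unc-1, a stomatin gene (80.02), rad-54.B (80.03), egl-8, which encodes a phospholipase C beta (80.04), C14B4.2 (80.04) and dab-1 (80.16). Those of the same kind just outside it lay in sra-14 (79.95), nfs-1 (79.94), lin-8 (79.91), aakg-4 (79.82) and tsp-10 (79.79). The signal falls off smoothly here, so the number of members depends on the limit.

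Strong peaks of both replicates met in a smaller share of intronic peaks than of all nuclear peaks. A strong peak of replicate 1 lay in 228 of the 397 (57.4%, 52.4 to 62.3), against 71.0% of all 2902 nuclear peaks. For replicate 2 it was 260 (65.5%, 60.6 to 70.2), against 70.5%. Both replicates had a strong peak in 132 (33.2%, 28.6 to 38.1), against 48.4%, 1 replicate had one in 224, and neither in 41. Members also had lower signals than peaks in promoter windows, and the part of that in these shares was not tested. Of the 53 in the optimal list, 51 were strong in both replicates. That list was derived from both replicates and holds high pooled signals only, so this share is no independent support.

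Of the 397 members, 371 (93.5%) appeared somewhere in both relaxed replicate lists, 384 in that of replicate 1 and 383 in that of replicate 2. Such presence was common in every class. Of the 2028 peaks in promoter windows, 1997 were in the list of replicate 1 and 2000 in that of replicate 2. Between genes these were 354 and 353 of 360, and in exons 115 and 114 of 117. The share in both lists is not given here for all 2902 nuclear peaks. Where both values existed, replicate 1 was higher in 183 and replicate 2 in 188. Their medians were 48.9 over 384 peaks in replicate 1 and 50.4 over 383 in replicate 2. The pooled signal was close to the sum of the replicate signals, with a median ratio of 1.00 and a middle range of 0.960 to 1.03. Across the 371 peaks Spearman's rho between the replicates was 0.022 and Pearson's r on the log10 scale 0.169. A limit on that sum favours pairs in which 1 value is high and the other low, so these correlations are descriptions of the chosen peaks only. The 384 and 383 matches came from 372 and 369 distinct replicate peaks, and 40 members overlapped another member, so the pairs are not all separate.

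**Figure D2:**
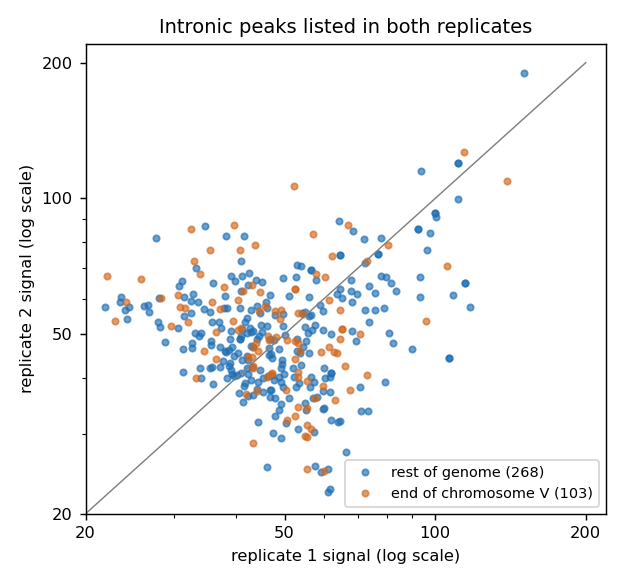
Replicate 1 signal (horizontal, log scale) against replicate 2 signal (vertical, log scale) for the 371 intronic peaks listed in both replicates, at the right end of chromosome V (103) and in the rest of the genome (268). The line marks equal values. The cloud has an empty lower left corner, where the sum of both signals would fall under the limit of 80, and the few points high in both replicates lie near the line.

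The members were unevenly spread along the genome. The last 2.42 Mb of chromosome V, from position 18500001 to its end at 20924180, held 116 of the 397 (29.2%, 24.8 to 34.0). Its left border was chosen after the data were seen, at a step in the number of peaks per 100 kb: from there on every bin of 100 kb had at least 3 nuclear peaks of 80 or more. In the 100 kb before the border there were 0 members and 2 nuclear peaks of 80 or more, and in the 100 kb after it there were 4 and 6, and in the next 100 kb, from 18600001, 12 and 21. Counted against the intron bases that could have held a member, this end of the chromosome had 161 members per Mb (116 in 0.719 Mb), while the rest of the genome had 13.7 (281 in 20.6 Mb). The rest of chromosome V had 9.58 per Mb, chromosome IV 11.2, X 12.8, II 15.2, I 15.6 and III 16.2.

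The excess at this end was not confined to introns or to strong peaks. Its size differed between the lists, and the share of peaks at this end differed between the classes. All nuclear peaks of 80 or more were 153 per Mb of chromosome there and 25.9 elsewhere. The whole relaxed pooled list gave 696 against 289 per Mb, the relaxed list of replicate 1 gave 576 against 224, and that of replicate 2 gave 607 against 233. The end of chromosome V held 29.2% of the intronic peaks and 8.19% of those in promoter windows (7.03 to 9.46). It held 17.8% of those between genes (14.0 to 22.1) and 22.2% of those in exons (15.1 to 30.8). The bases available to each of these other classes are not given here, so the shares are not densities. The signals of its intronic peaks were like those elsewhere, with a median of 93.7 against 93.1. The cause of the excess was not tested, and the summaries that follow give values without this end beside those over all members.

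**Figure D3:**
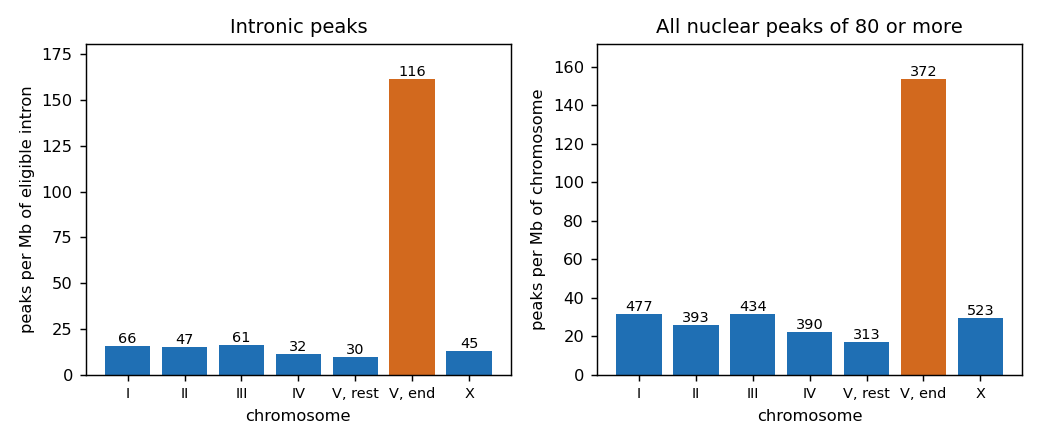
Density of peaks by chromosome, with chromosome V split at 18.5 Mb. Left, intronic peaks per Mb of intron that could hold one, and right, all nuclear peaks of 80 or more per Mb of chromosome; the numbers over the bars are peak counts. The end of chromosome V stands at 161 and 153 per Mb, and the other bars lie between 9.58 and 16.2 on the left and between 16.9 and 31.6 on the right.

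Members lay in long introns. The host intron had a median length of 1491 bp, while the median over all intron bases that met the rule was 948 bp. Outside the end of chromosome V these values were 1997 and 939 bp, and inside it they were alike, 1100 and 1112 bp. Introns longer than 5000 bp held 91 members (22.9%) and 12.2% of the eligible bases, and introns shorter than 500 bp held 35 members (8.82%) and 27.9% of the bases. First introns held 112 members (28.2%) and 17.0% of the bases. Introns were numbered in the transcript with the shortest intron at each position. A first intron can thus lie far inside its gene, as in pqn-41. Outside the end of chromosome V the shares in first introns were 29.9% and 16.9%, and inside it 24.1% and 17.9%. The summits lay a median of 397 bp from the nearest exon edge, against 210 bp for eligible bases (408 and 208 bp outside the end of chromosome V). Their distance to the nearest 5′ end, a median of 1677 bp, was like that of the eligible bases, 1641 bp (1563 and 1635 bp outside it).

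**Figure D4:**
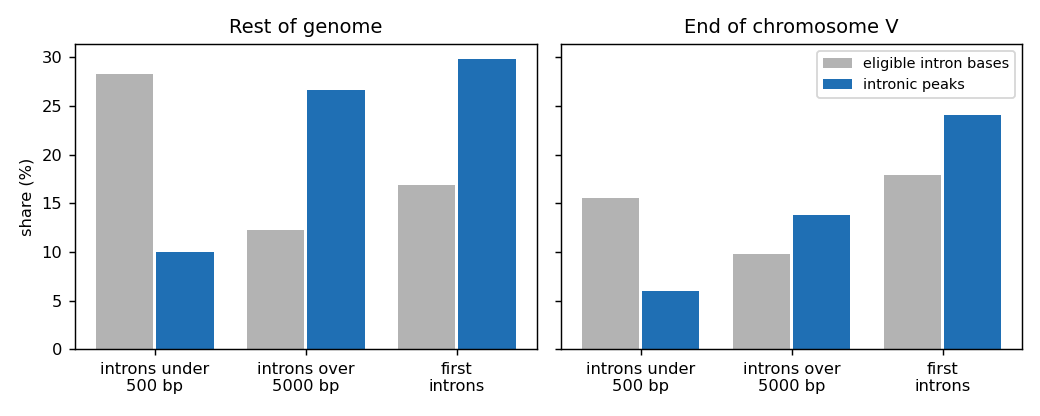
Share of eligible intron bases (grey) and of intronic peaks (blue) in introns shorter than 500 bp, in introns longer than 5000 bp and in first introns, for the rest of the genome (left) and the end of chromosome V (right). In the rest of the genome the short introns hold 28.3% of bases and 9.96% of peaks, and the long ones 12.3% and 26.7%.

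The sequence at the summits was richer in GC than introns are. The summit windows had a median GC content of 40.4%, against 31.8% in 97387 windows of the same length tiled over the eligible introns. It was 42.4% outside the end of chromosome V and 36.4% inside it, while the tiles had 31.8% in both. Windows in promoters had 44.4% and windows between genes 41.7%. Outside the end of chromosome V, mean GC in 51 bp steps was 42.0 ± 0.7% (SE over 281 peaks) at the summit, 37.4 ± 0.6% at 500 bp to the left and 35.2 ± 0.6% at 500 bp to the right. The last of these was the lowest step of that profile, and all steps more than 200 bp away stayed under 38.2%. At the end of chromosome V it was 36.2 ± 1.2% at the summit (116 peaks), 32.3 ± 1.1% at 500 bp to the left and 33.5 ± 1.2% at 500 bp to the right. Farther out there it was 32.9 ± 1.1% at 1500 bp to the left and 35.1 ± 1.1% at 1500 bp to the right. The steps at 500 bp were the lowest on their sides at this end. Some other steps reached the summit value, with 37.3 ± 1.2% at 650 bp to the left and 36.6 ± 1.2% at 800 bp to the right. A rise at the summit was thus not clear at this end.

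**Figure D5:**
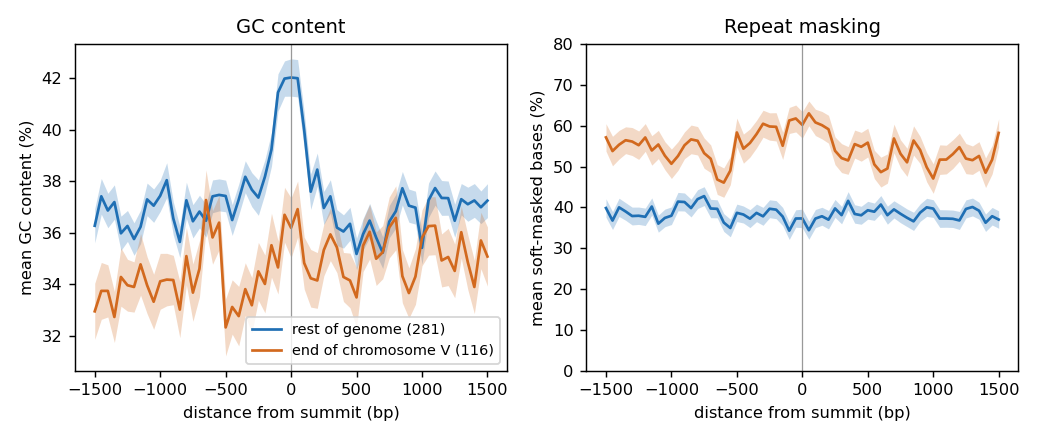
Mean GC content (left) and mean share of soft-masked bases (right) in 51 bp steps by distance from the summit, for the 281 intronic peaks of the rest of the genome and the 116 at the end of chromosome V. Bands show 1 standard error over peaks. In the rest of the genome GC rises within about 200 bp of the summit to 42.0%, and masking is flat. At the end of chromosome V masking is higher over the whole range, and its highest step, 63.0%, lies 50 bp to the right of the summit.

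Repeat masking was lower over all these peaks than in introns at large, but at the end of chromosome V it was nearly the same. Of the summit windows, 348 of 397 (87.7%) held at least 1 soft-masked base and 158 were at least 50% masked (39.8%), against 56.8% of the tiles. The median masked share was 38.4%, against 57.0% in the tiles. It was 29.1% outside the end of chromosome V and 61.9% inside it, where the tiles had 66.9%. The mean inside it was 61.7%, against 62.6% of the eligible bases. There 77 of the 116 windows were at least 50% masked, against 67.4% of the tiles. Words of 31 bp that occur more than once in the genome made up 4.72% of the windows on average and 11.5% of the eligible bases, and 79 members held any. Outside the end of chromosome V these were 2.23%, 11.3% and 36 members. Of the strongest members, usp-39 and Y43F8C.6 (90.7% of bases masked, signal 159) were mostly repeat, as were W05H12.1 (56.3%, signal 158) and the second peak in grdn-1 (65.6%, signal 150.1). In lsy-22, let-526, nhr-3, spop-1 and F53H2.3 the window of the strongest peak held no masked base. The lowest GC content of all was in hot-2, shown here with TAAT or its reverse complement in capitals, an A- and T-rich window in which 5 matches stand and 96.0% of bases are masked.
hot-2, chrV:19182066-19182216: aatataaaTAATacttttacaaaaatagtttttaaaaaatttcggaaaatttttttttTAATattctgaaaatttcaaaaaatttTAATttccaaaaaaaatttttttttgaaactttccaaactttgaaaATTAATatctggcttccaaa

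The homeobox core was not more frequent at the summits than in introns generally. TAAT, searched on both strands, was in 254 of 397 windows (64.0%, 59.0 to 68.7), in 73.0% of flanking windows 500 bp to either side and in 78.0% of the tiles. The share outside the end of chromosome V was 60.9% of members and 78.1% of tiles, and inside it 71.6% and 75.4%. TAAT is rich in A and T, and by band of GC content it was in 77.2% of 57 members and 88.3% of tiles under 30% GC. From 30 to 40% GC it was in 76.9% of 134 members and 78.1% of tiles, from 40 to 50% in 57.1% of 154 and 58.8%, and from 50% in 36.5% of 52 and 35.8%. The gap under 30% GC lay at the end of chromosome V (65.5% of 29 members, 80.7% of tiles) and not elsewhere (89.3% of 28 members, 88.6% of tiles). The longer words TTAATT (15.6% of members, 25.5% of tiles) and CAATTA (6.80% and 11.1%) were also no more frequent than in the tiles, with 13.5% and 7.83% of members outside the end of chromosome V. A match describes the letters and is not a site, and the absence of an excess says nothing of the factor itself.

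GAGAGA, with its reverse complement TCTCTC, was more frequent at the summits than in introns generally. It was in 68 of 397 windows (17.1%, 13.6 to 21.2), against 6.80% of the flanks and 5.86% of the tiles. All of the difference lay outside the end of chromosome V, with 64 of 281 windows (22.8%) there, 7.83% of the flanks and 5.95% of the tiles. At the end of chromosome V it was in 4 of 116 (3.45%), against 3.52% of the tiles. The share rose with GC content in both members and tiles. Outside the end of chromosome V, with 30 to 40% GC, it was 10.3% of 87 members and 6.38% of tiles. With 40 to 50% GC, it was 27.3% of 121 and 11.7%, and with 50% or more, 48.9% of 45 and 12.3%. Windows under promoter peaks held it in 22.7% and those between genes in 27.5%, both above the interval of the intronic members. Without the peaks of the end of chromosome V these were 23.6% and 29.4%, beside 22.8% of the intronic windows. At that end they were 12.7% and 18.8%, beside 3.45%.

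Members of high signal with GAGAGA are shown for the arrangement of the word, which is in capitals in either orientation.
larp-1, chrIII:5014080-5014230: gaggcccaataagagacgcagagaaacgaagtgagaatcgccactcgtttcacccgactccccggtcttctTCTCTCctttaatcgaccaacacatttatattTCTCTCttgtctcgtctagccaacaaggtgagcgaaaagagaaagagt
F53H2.3, chrV:20410441-20410591: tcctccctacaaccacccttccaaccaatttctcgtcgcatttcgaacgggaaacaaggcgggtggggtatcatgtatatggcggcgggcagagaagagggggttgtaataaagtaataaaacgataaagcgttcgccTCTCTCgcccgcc
Y48C3A.5, chrII:13291722-13291872: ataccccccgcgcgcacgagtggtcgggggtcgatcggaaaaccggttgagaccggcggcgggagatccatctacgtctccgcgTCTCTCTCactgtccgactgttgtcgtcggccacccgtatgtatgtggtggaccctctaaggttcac
toca-1, chrX:1517623-1517773: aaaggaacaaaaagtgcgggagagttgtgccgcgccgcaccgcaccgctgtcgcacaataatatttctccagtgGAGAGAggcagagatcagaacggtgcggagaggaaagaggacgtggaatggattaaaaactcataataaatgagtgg
The window in larp-1 holds 2 separate copies, that in Y48C3A.5 overlapping copies in a run, and the windows in F53H2.3 and toca-1 1 copy each. Their GC content ran from 47.0% in larp-1 to 62.3% in Y48C3A.5.

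Pieces that resemble the internal promoter of tRNA genes occurred in a few members. Such promoters have a box A and a box B, and all summits within 200 bp of an annotated tRNA gene had been left out. The box B core GGTTCGA was in 14 of 397 windows (3.53%, 1.94 to 5.85), 1.51% of flanks and 0.903% of tiles. It was in 7 of 281 windows outside the end of chromosome V (2.49%, tiles 0.843%), and in 7 of 116 inside it (6.03%, tiles 2.45%). The box A core GGCNNAGTG, a word added after the srt-52 window had been seen, was in 12 (3.02%), 1.26% of flanks and 0.725% of tiles, and outside the end of chromosome V in 9 (3.203%, tiles 0.675%). At least 1 of the boxes was in 20 windows (5.04%, against 1.54% of tiles), and both in 6 (1.51%, against 0.0863%). Of the 281 windows outside the end of chromosome V, at least 1 was in 13 (4.63%, tiles 1.46%) and both in 3. The 6 lay in WBGene00020829, cyp-42A1, Y43F8B.3, hmr-1, ncs-5 and T27F6.6, with signals from 85.5 to 180. Both boxes were searched on either strand, without regard to their order or spacing, so these are matches to words and not counts of promoters. The windows of highest signal among the 6 are printed with the boxes in capitals. Read on the minus strand, the marked box A comes before box B in the WBGene00020829 window and after it in the cyp-42A1 window. In the cyp-42A1 window the box B core matches on both strands. An unmarked stretch there, ggcgcagta, differs from the box A word in its last base and lies before box B on the plus strand. The order of the boxes in that window is therefore not settled by the marked words.
WBGene00020829, chrX:1837776-1837926: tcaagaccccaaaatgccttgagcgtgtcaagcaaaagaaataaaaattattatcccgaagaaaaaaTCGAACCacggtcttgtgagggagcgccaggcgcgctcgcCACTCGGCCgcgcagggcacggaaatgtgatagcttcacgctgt
cyp-42A1, chrV:18913276-18913426: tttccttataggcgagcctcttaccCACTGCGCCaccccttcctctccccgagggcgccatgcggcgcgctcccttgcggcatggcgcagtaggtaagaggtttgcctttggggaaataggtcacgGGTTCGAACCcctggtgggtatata
Whether these stretches are transcribed was not measured here.

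The other words searched were rarer, and their members are few. GATAAG, bound by GATA factors, was in 4.28% of members, 4.66% of flanks and 3.82% of tiles. TGTTTAC, a forkhead word, was in 9 members (2.27%, 1.04 to 4.26), 0.756% of flanks and 1.49% of tiles, and 8 of the 9 lay outside the end of chromosome V. TGTTTGC was in 3.78% of members, 2.39% of flanks and 2.60% of tiles. CACGTG, the E-box, was in 2.52%, 2.39% and 2.09%, TCACAC in 5.54%, 6.80% and 4.48%, and CTGTTTCA in 0.252%, 0.756% and 0.635%. A run of 8 A was more common, in 17.4% of members, 23.3% of flanks and 28.0% of tiles. Without the end of chromosome V the shares of members were 4.63% for GATAAG, 2.85% for TGTTTAC, 3.203% for TGTTTGC, 2.14% for CACGTG, 5.34% for TCACAC, 0.356% for CTGTTTCA and 14.9% for the A run. In all, 13 words were searched.

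The 397 summits lay in 302 host genes, of which 298 were protein-coding, 3 were pseudogenes and 1 was the long non-coding RNA gene linc-146. Of the 14880 protein-coding genes with eligible intron bases, 298 were hosts, which is 2.00%. Host genes had far more intron to offer, with a median of 4.68 kb of eligible intron against 0.576 kb in the other genes. The share of hosts was 0.268% for genes with up to 1 kb, 2.22% from 1 to 3 kb, 9.02% from 3 to 10 kb and 25.9% over 10 kb. Counts by gene group are read beside the intron length of the group. The members in hosts of the lists below were 62, in 47 host genes, with signals from 80.04 to 180, of which 22 were strong in both replicates. The lists overlap, and hmr-1, vab-1, cam-1, lin-17 and vab-10 each count in more than 1 of them, so the group shares are not separate.

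One peak was the rule, and 242 hosts had 1 member, 38 had 2 and 22 had 3 or more. The most, 6 each, were in grdn-1 and C14B4.2, both at the end of chromosome V. In grdn-1 the pooled signals ran from 86.6 to 249, and in C14B4.2 from 80.04 to 118. Then came lsy-22 and hmr-1 with 5 each. In lsy-22 the 5 summits lay in the first intron, with 80.4 to 186, and some of them matched the same replicate peak. In hmr-1, the cadherin of epithelial junctions, they were spread over several introns with 97.5 to 115. Those with 4 were pqn-41 on chromosome III and hot-2, mrp-7, kcnl-1 and gly-4 at the end of chromosome V. Of the 302 hosts, 67 lay at that end.

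Without the end of chromosome V there were 235 hosts. Genes of pharynx fate were hosts in 2 of 18 cases with eligible introns (11.1%), pha-4 and lag-1. The first is the FoxA gene that sets pharynx identity, and the second encodes the CSL factor at the end of the Notch pathway. The peak in the first intron of pha-4 spanned 20753816 to 20754271 of chromosome V, within the peak-rich end described above. Its pooled signal was 88.0 (52.4 and 44.1 in the replicates), and it was not strong in both. The peak in lag-1 had 111, 41.0 and 72.8, and was strong in 1 of them. Of 11 genes of pharyngeal muscle, 0 were hosts.

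Genes of epidermis and cell junctions were hosts in 6 of 41 cases (14.6%), all of them outside the end of chromosome V. They were ajm-1, cam-1, hmr-1, lin-17, vab-10 and zoo-1. The apical junction gene ajm-1 held 2 peaks in one intron of 3266 bp, with 124 and 119, both strong in each replicate, and the second had replicate values of 72.5 and 56.6. The peak in zoo-1, the ZO-1 homologue, had 93.7 (47.3 and 44.3), and that in lin-17, a Frizzled gene, had 80.8 and was listed in replicate 1 alone. The hosts of this list had a median of 7.88 kb of eligible intron, the whole list 1.37 kb.

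In the list of signalling receptors and ligands, 9 of 64 genes were hosts (14.1%), all of them outside the end of chromosome V. This list also holds genes that are neither, such as mpk-1, sos-1 and mel-11, so the share is not one of receptors and ligands alone. In vab-1, the Eph receptor, there were 3 peaks, of 131, 112 and 95.3. The ephrin genes efn-4 (102 and 96.4) and vab-2 (90.2) were hosts as well. The list also gave plx-1, a plexin (81.5), mpk-1, the ERK kinase (97.2), sos-1, a Ras exchange factor (88.9), and mel-11, a myosin phosphatase subunit (88.9, with 61.1 and 22.4 in the replicates). In vab-1 the peaks of 131 and 95.3 overlap and matched the same replicate peaks, strong in both, while the interval of the peak of 112 held no peak of replicate 2.

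Neuronal genes were hosts in 8 of 97 cases (8.25%), 6 of them outside the end of chromosome V. Among the 8 were unc-33 with 90.6 and, at that end, unc-51, the autophagy kinase used in axon growth, with 144 and 104. The window of the unc-51 peak of 144 was 100% soft-masked, and 76.9% of its 31 bp words occur more than once in the genome. The peak in the first intron of unc-119 spanned 10904812 to 10905267 of chromosome III and had 88.3, 38.7 and 42.5. The strain carries a mutant allele of this gene, and the relation of the peak to that allele was not tested. Genes of body wall muscle were hosts in 3 of 43 cases (6.98%), namely lev-11, the tropomyosin gene (117, with 79.0 and 57.2), unc-89 (97.9) and vab-10 (86.1 and 83.2).

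Homeobox genes were hosts in 2 of 100 cases (2.00%), ttx-1, an Otx gene (94.3), and zfh-2 (114 and 94.1). Other transcription factors were hosts in 22 of 406 (5.42%), 17 of them outside the end of chromosome V. Many of the 22 were nuclear hormone receptors, a family whose share of the 406 is not given here. These included nhr-3 (180), nhr-21 (129), daf-12 (80.3) and, at the end of chromosome V, nhr-65 (175, 82.4 and 80.6). The heterochronic gene lin-14 (108 and 84.4) and the forkhead gene fkh-9 (114) were hosts beside them. Genes of the intestine (0 of 19), cytosolic ribosomal proteins (0 of 12) and the germline and maternal set (0 of 41) gave none, and these lists also had the least intron, with medians of 0.512, 0.0825 and 0.231 kb. The lists with a host share above the 2.00% of all genes had medians from 0.646 to 3.16 kb, above the 0.595 kb of all genes, but so had pharyngeal muscle (1.36 kb) and homeobox genes (1.15 kb).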

How the data were processed

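ChIP-seq peaks of 1 group with 2 biological replicates were used as deposited on ce11: relaxed lists of replicate 1 (23371 peaks), replicate 2 (24336) and the pooled replicates (30000), and an optimal list (878). Each gives the authors' signal value and a −log10 q-value per peak, as deposited. Aligner, peak caller and settings were not given in the sources used here, nor was the depth, so intervals are exact binomial ones over counted peaks only. Summits were placed on WBcel235 with Ensembl release 115 and the soft-masked RefSeq sequence, in Python 3.11.15 with pandas 2.3.3 and scipy 1.17.1. Placement and matching were first tested on simulated peaks. A member's replicate value is that of the strongest replicate peak whose summit lay in its interval. No test was run, and no p-value is given. The members, gene lists and motifs were chosen with earlier results of these data known. The text names the 25 members of highest signal, hosts in the gene lists, hosts of several members and peaks at the limit, and of each group the main ones; those named for replicate gaps, masking or boxes were chosen after their values were seen. Alternatives were the signal limit, promoter window, kinds of 5′ end, small RNA neighbours, overlapping intervals, either replicate alone, window size, support rule and, chosen after seeing the data, leaving out the end of chromosome V and the box A core.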

Additional observations from a re-analysis of the deposited data

How the results depend on the processing

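The number of members followed the signal limit, with 1354 at a limit of 60 and 53 at 120, and moved by less than 1.5 times under the other alternatives. It was 508 with gene starts only and ran from 401 to 442 with 1 replicate left out (the 2902 strongest nuclear peaks of the other). With gene starts only, 83 members were in the optimal list. The share at the end of chromosome V was 18.4% at a limit of 60 and 20.8% at 120, and stayed from 25.2% to 32.3% otherwise. Strong support in both replicates was 23.4% with summits within 100 bp, 93.5% in the whole relaxed lists and 96.2% at a limit of 120. Host genes fell to 49 at a limit of 120. At that limit the median intron was 3315 bp, a masked base stood in 73.6% of windows, median GC was 45.0% and GAGAGA was in 28.3%. Without the end of chromosome V, an alternative chosen after seeing the data, these were 1997 bp, 83.3%, 42.4% and 22.8%. In windows of 150 bp to either side, 96.0% held a masked base, GC was 38.9% and GAGAGA was in 25.9%, and 39.8% of the windows of 75 bp to either side were at least 50% masked. Of the rarer words, at a limit of 120 TCACAC was in 11.3% of windows, GATAAG in 7.55%, TTAATT in 5.66%, the box A and box B cores in 5.66% each, CTGTTTCA in 1.89% and the A run in 3.77%. At a limit of 120 fewer peaks were counted; the cause of the other shifts was not tested. No paired analysis was possible because there is 1 group. Sequencing depth is unknown.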
